A study of Mus musculus with 63 samples.

Results

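The clustered protocadherins are neuronal cell surface cadherins whose genes stand in 3 neighbouring arrays, the alpha, beta and gamma clusters. Their members were all rows of the RNA-seq count tables whose symbol carries an alpha, beta or gamma protocadherin number. This gave 56 of 47517 symbols, of which 13 are alpha genes, 22 beta genes and 21 gamma genes (12 of the A type, 7 of the B type and 2 of the C type). Pcdha10 and Pcdhgc4 were not analysed here. Single members were chosen by symbol with no threshold, but the family as a whole was selected on its measured CPM levels and differences across these same 10 groups. Its values and calls are therefore a description taken from a fit across all genes and no independent evidence.

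The libraries come from C57BL/6 mouse stem cells in a study of the transcription factor YY1. Its RNA-seq part holds 22 libraries in 10 groups. EPS-shYy1 cells are extended pluripotent stem cells depleted of Yy1 with a hairpin, and EPS-shCtrl cells carry a control hairpin (2 libraries each). ES-oeYy1 cells are embryonic stem cells that overexpress Yy1, and ES-oeCtrl cells are their controls (2 libraries each). The same 4 lines were also sequenced on day 6 of a differentiation that the labels call F4H (2 libraries each). Untransduced EPS and ES cells have 3 libraries each. The labels put EPS cells in serum-free LCDM medium and ES cells in serum-free 2i medium, grown on Matrigel or on mitotically inactive fibroblasts from mouse embryos, and do not tie a library to either. They name no hairpin sequence, vector, promoter or number of clones. They also do not say that replicates were separate cultures, so p-values measure the spread between libraries, which may be technical. The day 6 control titles name shCtrl and oeCtrl, while their genotype entries say only control, and the titles were followed here. A library kit is named only for the day 6 libraries, so stage and library batch cannot be told apart.

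Clustered protocadherins form adhesive dimers that bind the same isoforms on a facing cell, which lets a neuron recognise its own branches. Each variable exon has a promoter of its own. In neurons a few of the alpha, beta, gamma A and gamma B promoters are picked at random in each cell, whereas the C-type genes are used more constantly. CTCF and cohesin join a picked promoter to distant enhancers, and DNA methylation laid down by DNMT3B, SMCHD1 and SETDB1 with H3K9 methylation keep promoters silent. Pluripotent stem cells are not known for using the family, and a bulk library averages any choice made cell by cell.

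All members lie on chromosome 18 of GRCm38.p6. RefSeq places the alpha cluster between 36930285 and 37188897, the beta cluster between 37264998 and 37521419, and the gamma cluster between 37661775 and 37841873. Beta genes have a single coding exon each, and Pcdhb14 (37447657 to 37451094) and Pcdhb17 (37485021 to 37488290) are 2 of them. Gamma members start in turn from Pcdhga1 (37661775) to Pcdhgc5 (37819546), and all end at or after 37840489, because each variable exon is joined to the same constant exons. Alpha members likewise end at or after 37187657. A read in a shared constant exon belongs to several symbols, so gamma and alpha values may hold mainly reads that touch variable exons. How the authors assigned shared reads is not given in the sources used here. Ambiguous reads made up 3.70 to 5.32% of those tallied in a table, and the strand setting is not given either. Pcdhgb8 is a transcribed pseudogene in RefSeq.

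Counts on genes ranged from 13672061 to 20782348 per library, so 3 counts, the floor used for a gene at 0, correspond to 0.144 to 0.219 CPM, the usual depth-scaled count, taken here over all gene counts of a library. Replicate 3 of ES and replicate 3 of EPS stood apart from the other replicates of their groups, as did the EPS-shCtrl replicates from each other. Yy1 itself had 70.5 and 70.5 CPM in EPS-shYy1 libraries, against 134 and 134 CPM in EPS-shCtrl libraries, and 934 and 941 CPM in ES-oeYy1 libraries, against 120 and 124 CPM in ES-oeCtrl libraries. On day 6 it had 114 and 110 CPM in EPS-shYy1 cells, against 129 and 123 CPM in EPS-shCtrl cells, a difference that did not pass the test (log2 fold change -0.03 ± 0.05 SE, adjusted p = 0.567, edgeR). Fold changes come from a fit with TMM scaling, which CPM does not carry, so the size of a day 6 difference is not the same on both. In ES-oeYy1 day 6 libraries Yy1 stood at 331 and 324 CPM, against 120 and 126 CPM in ES-oeCtrl day 6 libraries. The lines of a pair also differed in genes outside Yy1. The summed level of 4 Y-linked genes (Ddx3y, Eif2s3y, Kdm5d and Uty, a list added after seeing the data) was 139 to 140 CPM in EPS-shYy1 and 2.59 to 2.71 CPM in EPS-shCtrl libraries, and 25.6 to 26.6 CPM in ES-oeYy1 and 108 to 128 CPM in ES-oeCtrl libraries, and its part in the results was not tested. Pluripotency markers summed to 226 to 477 CPM on day 6 and to 5063 to 8113 CPM in undifferentiated libraries.

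The family was lowly expressed. The 13 alpha genes together averaged between 0.274 and 1.25 CPM in each of the 10 groups. None had more than 12 counts in a library, 11 never reached 10 counts, and Pcdhac1 had no read in any library. Pcdhac2, the other alpha C-type gene, lay between 0.0509 and 0.542 CPM wherever it was detected. The alpha genes therefore stay at or near the floor at this depth, and none passed the filter on low counts.

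Beta genes had few reads in most groups. They had at most 68 counts in a library, and 15 of the 22 never reached 10 counts. Their sum was highest in ES-oeYy1 cells, at 9.67 ± 2.66 CPM (SD, n = 2), and lowest in EPS-shYy1 cells, at 0.460 ± 0.0303 CPM (SD, n = 2). Beta genes have 1 short span each, so their levels can be set side by side per kilobase of that span. In ES-oeYy1 cells Pcdhb14 led with 1.12 CPM per kb, ahead of Pcdhb17 with 0.729 and Pcdhb8 with 0.394 CPM per kb. In ES cells Pcdhb22 led with 0.440 CPM per kb, and on day 6 it led in all 4 lines, between 0.412 and 1.07 CPM per kb. The gene with most reads per kb in the beta array thus differed between the groups.

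Gamma genes carried most of the reads. Of the 21, 17 had reads in all 22 libraries, and Pcdhga10 had none in any. The gamma sum ran from 13.3 ± 5.32 CPM in EPS cells (SD, n = 3) to 77.0 ± 2.25 CPM in EPS-shCtrl cells on day 6 (SD, n = 2). Gamma members are not ranked against one another here, because the length that collects their reads is not known. The plot of summed levels shows the 3 clusters in every library.

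**Figure D1:**
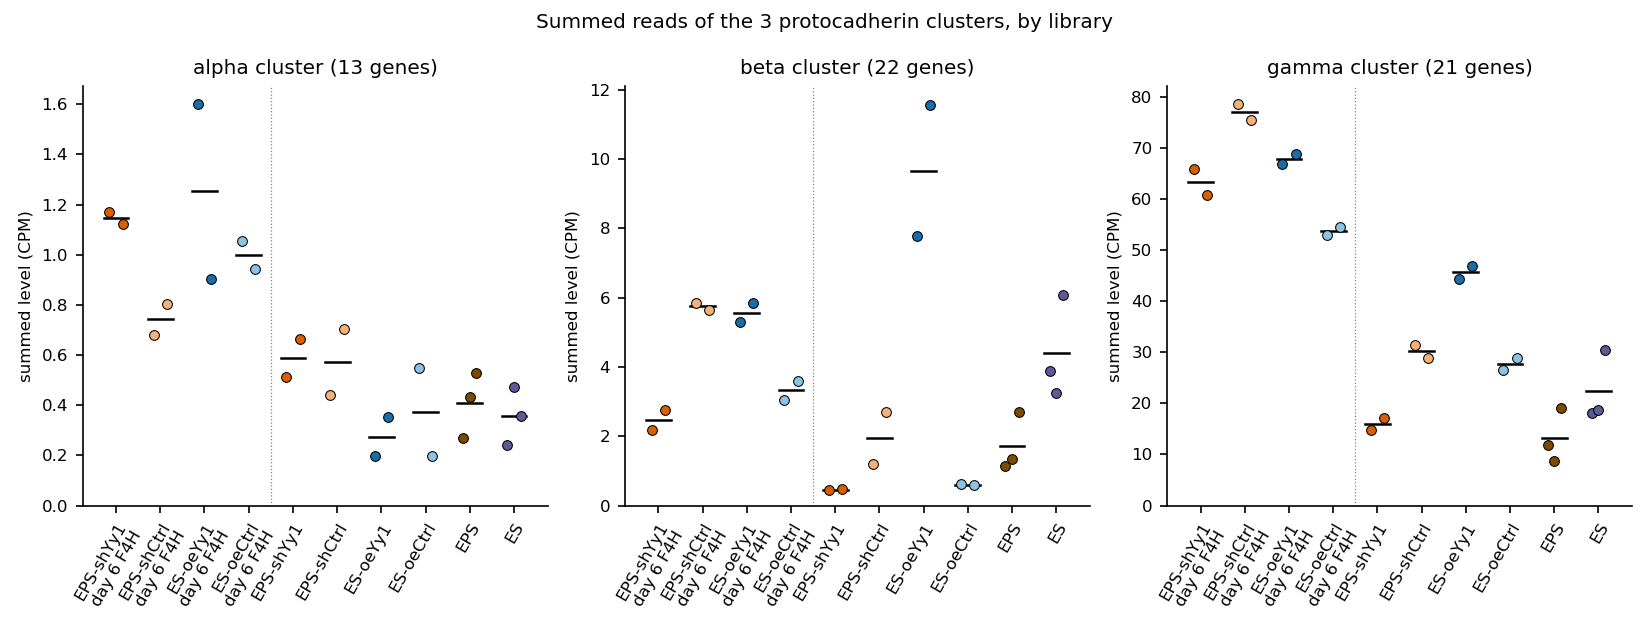
Summed level (CPM, linear axes that differ between panels) of the alpha, beta and gamma genes in each library, by group. Points are libraries, lines are group means and the dotted line separates day 6 from undifferentiated cells. Beta sums reach 9.67 CPM on average in undifferentiated ES-oeYy1 cells, and gamma sums on day 6 lie above those of undifferentiated cells.

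**Figure D2:**
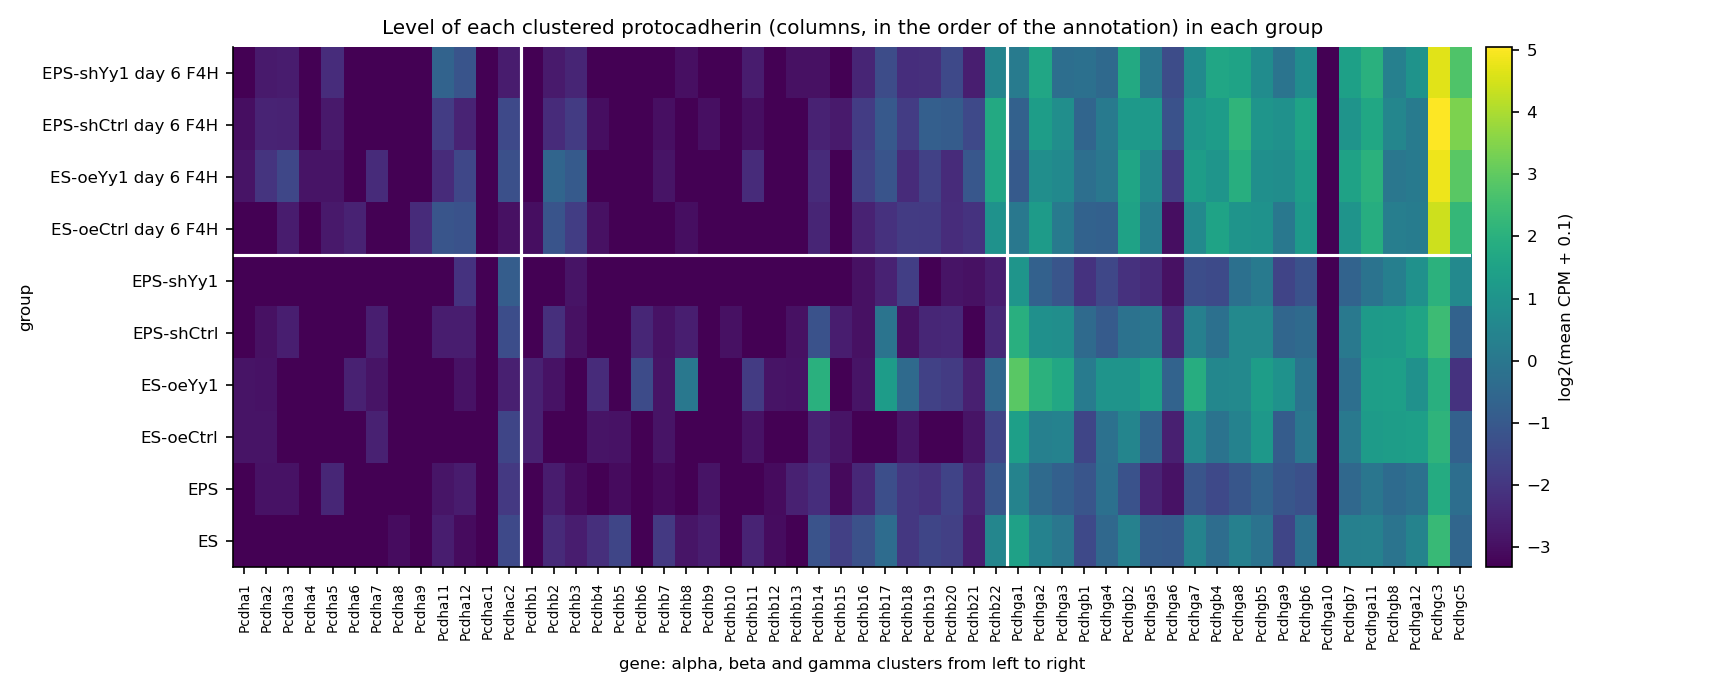
Mean level of each of the 56 genes, as log2(mean CPM + 0.1), with genes in genomic order within each cluster (columns) and the 10 groups as rows. Alpha and most beta columns are dark throughout, while gamma columns hold reads in nearly all groups and Pcdhgc3 is brightest on day 6.

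Yy1 depletion in undifferentiated EPS cells came with fewer gamma and beta reads. The gamma sum was 16.0 ± 1.68 CPM in EPS-shYy1 cells and 30.2 ± 1.81 CPM in EPS-shCtrl cells, and the beta sum was 0.460 ± 0.0303 CPM in EPS-shYy1 cells and 1.95 ± 1.07 CPM in EPS-shCtrl cells (SD, n = 2 each). Neither pair of sums overlapped. Of 23 members that passed the filter, 9 fell and 0 rose, where 28.5% of all genes tested were called, 13.3% lower and 15.1% higher (edgeR quasi-likelihood test, adjusted p under 0.05). The median log2 fold change of the 19 gamma members tested was -1.08, beside -0.01 over all genes. The number of calls was 4 without EPS-shCtrl replicate 2, without EPS-shYy1 replicate 1 or without EPS-shYy1 replicate 2, and 5 when only these 4 libraries were fitted, where 13 members passed the filter.

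The falls were spread over the A and B members of the gamma array. Pcdhga2 had 0.585 and 0.421 CPM in EPS-shYy1 libraries, against 1.57 and 1.94 CPM in EPS-shCtrl libraries. Both depleted libraries were lower than both controls, and the log2 fold change was -1.87 ± 0.42 (SE, adjusted p = 0.00299, edgeR). This call held under every alternative run. Pcdhgb2 stood at 0.0731 and 0.181 CPM in EPS-shYy1 libraries, against 0.819 and 0.764 CPM in EPS-shCtrl libraries. The groups did not overlap, and the log2 fold change was -2.58 ± 0.61 (adjusted p = 0.00458, edgeR; 0.0523 without EPS-shYy1 replicate 1).

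Pcdhga5 had 0.146 and 0.0602 CPM in EPS-shYy1 libraries, against 1.13 and 0.588 CPM in EPS-shCtrl libraries, with a log2 fold change of -3.06 ± 0.78. Pcdhga3, Pcdhga7 and Pcdhga11 fell too, with log2 fold changes of -2.25, -1.99 and -1.55. In these 4 genes as well the higher EPS-shYy1 library was below the lower EPS-shCtrl library. Their calls were less firm, since leaving out EPS-shYy1 replicate 2 raised the adjusted p of Pcdhga11 to 0.107 (edgeR). Pcdhgb1, named here after its value was seen, was the ninth member called (log2 fold change -2.27 ± 0.78).

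In the beta array Pcdhb14 had no read in either EPS-shYy1 library, against 0.252 and 0.412 CPM in EPS-shCtrl libraries. Set against the floor of 3 counts per library it was at least 1.66-fold lower, and its adjusted p was 0.0319 (edgeR). Pcdhb17 had 0.146 CPM and 0 in EPS-shYy1 libraries, against 0.441 and 1.23 CPM in EPS-shCtrl libraries (log2 fold change -3.58 ± 0.94). These rest on 11 and 28 counts in the EPS-shCtrl libraries, and both calls were lost without EPS-shCtrl replicate 2 and without EPS-shYy1 replicate 2. The call of Pcdhb14 was also lost without EPS-shYy1 replicate 1 and held under 5 of 8 alternatives, that of Pcdhb17 under 6 of 8.

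The C-type members were not called. Pcdhgc3 had 4.10 and 4.03 CPM in EPS-shYy1 libraries, against 5.10 and 5.41 CPM in EPS-shCtrl libraries, a log2 fold change of -0.44 ± 0.35 that did not pass the test (adjusted p = 0.380, edgeR). Pcdhgc5 stood at 0.805 and 2.05 CPM in EPS-shYy1 libraries, against 0.567 and 0.470 CPM in EPS-shCtrl libraries, and was not called (adjusted p = 0.0990, edgeR). It was the only tested member with a positive fitted change in this comparison.

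Markers of fibroblasts, the cell type of the feeders, summed to 191 to 194 CPM over 23 genes in EPS-shYy1 libraries and to 258 to 260 CPM in EPS-shCtrl libraries. Gene by gene most calls went against this sum, with 7 of the 23 called higher and 1 lower (median log2 fold change 1.53). The 10 defining markers among them also summed higher with the hairpin, at 28.5 to 37.9 CPM in EPS-shYy1 and 8.76 to 19.5 CPM in EPS-shCtrl libraries. Twist2 was at 0 in both groups. Their part in the result was not tested. Neural and neuronal markers, 16 genes, summed to 399 to 426 CPM in EPS-shYy1 and 445 to 461 CPM in EPS-shCtrl libraries. Primitive and visceral endoderm markers summed to 222 to 253 CPM in EPS-shYy1 and 363 to 445 CPM in EPS-shCtrl libraries, with 9 of 13 tested called lower and 0 higher, and their part in the result was not tested. In bulk RNA a lower share of cells that use a gene and less RNA in each such cell cannot be told apart.

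Yy1 overexpression in undifferentiated ES cells came with more gamma and beta reads. The gamma sum was 45.6 ± 1.76 CPM in ES-oeYy1 cells and 27.7 ± 1.56 CPM in ES-oeCtrl cells, and the beta sum was 9.67 ± 2.66 CPM in ES-oeYy1 cells and 0.604 ± 0.0217 CPM in ES-oeCtrl cells (SD, n = 2 each). Of 23 members tested 10 rose and 0 fell, where 32% of all genes were called, 14.8% higher and 17.1% lower. The gamma median log2 fold change was 0.55, beside 0.01 over all genes. The number of calls was 6 without ES-oeCtrl replicate 1, without ES-oeYy1 replicate 1 or without ES-oeYy1 replicate 2.

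Among the members called were 3 beta genes with few or no reads in ES-oeCtrl cells. Pcdhb8 and Pcdhb14 passed the filter on low counts through the ES-oeYy1 libraries, where they are high, so that they had to differ, and their calls are given as a description. Pcdhb17 had 2.16 and 2.61 CPM in ES-oeYy1 libraries and no read in either ES-oeCtrl library. It was at least 11.8-fold higher against a floor of 3 counts per library (adjusted p = 0.000106, edgeR). Pcdhb14 had 3.01 and 4.72 CPM in ES-oeYy1 libraries, against 0.138 CPM and 0 in ES-oeCtrl libraries, which hold 2 counts in all. Pcdhb8 stood at 0.785 and 1.06 CPM in ES-oeYy1 libraries with no read in ES-oeCtrl libraries, at least 4.58-fold higher. All 3 calls held under every alternative run. Pcdhb22, the beta gene of highest level per kb in ES cells, had 0.589 and 0.634 CPM in ES-oeYy1 libraries, against 0 and 0.458 CPM in ES-oeCtrl libraries, and was not called.

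Among gamma members 7 were called, 6 of the A type and 1 of the B type. Pcdhga1 had 7.00 and 7.82 CPM in ES-oeYy1 libraries, against 2.20 and 2.94 CPM in ES-oeCtrl libraries (log2 fold change 1.52 ± 0.40). Pcdhga2 had 4.12 and 4.09 CPM in ES-oeYy1 libraries, against 1.17 and 1.11 CPM in ES-oeCtrl libraries (log2 fold change 1.84 ± 0.36). Pcdhga5 had 2.49 and 2.75 CPM in ES-oeYy1 libraries, against 0.481 and 0.588 CPM in ES-oeCtrl libraries (log2 fold change 2.27 ± 0.54). In all 3 genes the lower ES-oeYy1 library was above the higher ES-oeCtrl library. Pcdhga5 and Pcdhgb1 passed the filter on low counts only with the ES-oeYy1 libraries, where they are high. Their calls, like those of Pcdhb8 and Pcdhb14, are therefore given as a description. Pcdhga7 and Pcdhgb1 rose as well, by log2 fold changes of 1.32 and 2.08, and so did Pcdhga3 (1.38) and Pcdhga9 (2.02), both named after their values were seen. The call of Pcdhgb1 held under 4 of 9 alternatives and was lost with DESeq2 (adjusted p = 0.0645), with no filter on low counts, and without ES-oeCtrl replicate 2 or either ES-oeYy1 library. The calls of Pcdhga7 and Pcdhga1 held under 6 and 7 of 9, with that of Pcdhga7 lost without either ES-oeCtrl library or without ES-oeYy1 replicate 1, and that of Pcdhga1 without ES-oeCtrl replicate 1 or ES-oeYy1 replicate 2.

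Pcdhga11 and the C-type members were not called. Pcdhga11 had 2.36 and 2.61 CPM in ES-oeYy1 libraries, against 2.20 and 2.42 CPM in ES-oeCtrl libraries. Pcdhgc3 had 4.38 and 3.17 CPM in ES-oeYy1 libraries, against 4.61 and 3.92 CPM in ES-oeCtrl libraries (adjusted p = 0.752, edgeR). Pcdhgc5 stood at 0.131 and 0.141 CPM in ES-oeYy1 libraries, against 0.413 and 0.588 CPM in ES-oeCtrl libraries, also without a call (adjusted p = 0.130, edgeR).

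Fibroblast markers moved in the same direction as the beta and gamma sums. The 23 genes summed to 101 to 104 CPM in ES-oeYy1 libraries and to 35.0 to 44.2 CPM in ES-oeCtrl libraries. The 10 defining markers summed to 17.5 to 18.8 CPM in ES-oeYy1 and 4.25 to 5.16 CPM in ES-oeCtrl libraries, with Twist2 at 0 in both. Their part in the result was not tested. Neural markers summed to 332 to 336 CPM in ES-oeYy1 and 305 to 310 CPM in ES-oeCtrl libraries.

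**Figure D3:**
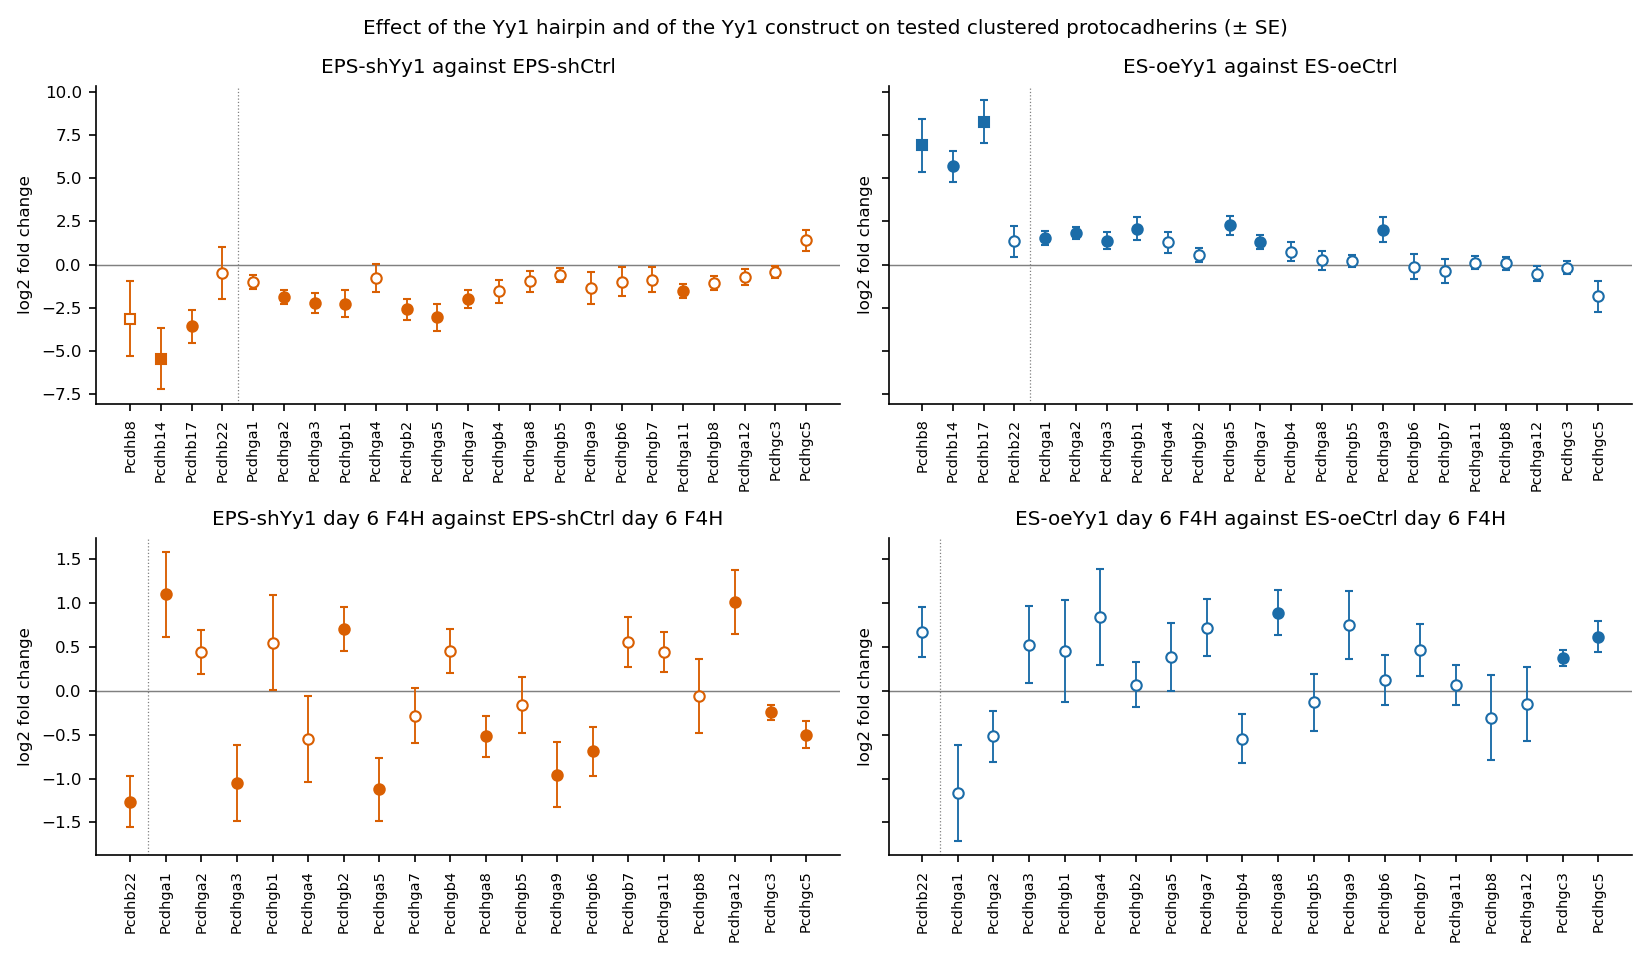
Log2 fold changes (± SE) of the tested members for the Yy1 hairpin (left) and the Yy1 construct (right), in undifferentiated cells (top) and on day 6 (bottom), in genomic order, with rows that differ in scale. Filled symbols passed an adjusted p under 0.05, and squares mark genes with no read in one of the groups, whose fitted values are no bound. In undifferentiated cells filled points lie below 0 for the hairpin (9 members) and above 0 for the construct (10 members).

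Members called in the hairpin and the construct comparison of undifferentiated cells overlapped. Pcdhb14, Pcdhb17, Pcdhga2, Pcdhga3, Pcdhga5, Pcdhga7 and Pcdhgb1 were lower with the hairpin and higher with the construct. These 7 members are 77.8% of the 9 lower with the hairpin and 70% of the 10 higher with the construct. Pcdhb14, Pcdhga5 and Pcdhgb1 among the 7, and Pcdhb8 among the 10, passed the filter only with the ES-oeYy1 libraries, where they are high. Both shares are therefore a description. Over all 16440 genes tested, 716 genes did the same, which is 32.7% of those lower with the hairpin and 29.3% of those higher with the construct. The comparisons share no library, but they were fitted in 1 model with a common spread.

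The untransduced cells showed lower gamma and beta sums in EPS cells. The gamma sum was 11.9, 8.76 and 19.1 CPM in EPS libraries, against 18.2, 18.8 and 30.4 CPM in ES libraries. EPS replicate 3 exceeded the 2 lower ES libraries, so the groups overlapped. Within each of the 3 pairs of same-numbered libraries the EPS value was lower, but the labels do not say that these numbers pair libraries. Beta genes summed to 1.13, 1.35 and 2.70 CPM in EPS libraries, against 3.90, 3.24 and 6.08 CPM in ES libraries, with no overlap. Of 23 members tested 6 fell and 0 rose, where 30.6% of all genes were called, 16.9% lower and 13.8% higher, and 7 were called with the replicate number as a block.

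Pcdhgb2 had 0.323, 0.385 and 0.293 CPM in EPS libraries, against 0.899, 1.35 and 1.31 CPM in ES libraries (log2 fold change -1.73 ± 0.39, adjusted p = 0.00267, edgeR). Pcdhga7 had 0.323, 0.241 and 0.528 CPM in EPS libraries, against 0.899, 1.00 and 1.79 CPM in ES libraries (log2 fold change -1.70 ± 0.40). Neither gene's groups overlapped, and both calls held under every alternative run. Pcdhb22 had 0.269, 0.144 and 0.704 CPM in EPS libraries, against 1.32, 1.12 and 1.61 CPM in ES libraries (log2 fold change -1.83 ± 0.60). Pcdhga5, Pcdhga8 and Pcdhga1 also fell, with log2 fold changes of -2.43, -1.60 and -1.06.

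The C-type genes were not called, Pcdhgc3 with 3.07, 2.45 and 4.81 CPM in EPS libraries, against 3.06, 4.30 and 7.40 CPM in ES libraries. The number of calls fell to 2 without EPS replicate 2 and to 3 without ES replicate 3 or without EPS replicate 1, and was 8 without EPS replicate 3. Neural and neuronal markers summed to 544 to 597 CPM in EPS libraries and 382 to 409 CPM in ES libraries, opposite to the family. Of 14 tested, 7 were called higher and 2 lower. Fibroblast markers moved with the family, with 538 to 1463 CPM over 23 genes in EPS libraries and 3135 to 5688 CPM in ES libraries. No defining fibroblast marker was at 0 in either group. The libraries with the highest fibroblast sum, replicate 3 of each group, also had the highest gamma and beta sums of their group. Their part in the result was not tested. Without replicate 3 of both groups, an alternative chosen after seeing the data, 6 members were called lower and Pcdhga8 was not among them.

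In the control lines the gamma sums were closer. EPS-shCtrl cells had a gamma sum of 30.2 ± 1.81 CPM and ES-oeCtrl cells one of 27.7 ± 1.56 CPM (SD, n = 2 each). Of 23 members tested 1 rose and 0 fell, where 40.4% of all genes were called, 19.7% higher and 20.7% lower. That member was Pcdhb17, with 0.441 and 1.23 CPM in EPS-shCtrl libraries and no read in ES-oeCtrl libraries, at least 4.17-fold higher against the floor, and it did not pass the filter on low counts when only these 4 libraries were fitted. These control lines also carry different constructs, so cell type and construct cannot be told apart, and whether the difference changed between untransduced and control cells was not tested. Fibroblast markers in them were 258 to 260 CPM in EPS-shCtrl and 35.0 to 44.2 CPM in ES-oeCtrl libraries.

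The C-type genes of the gamma array were higher on day 6 in all 4 lines. The 2 gamma C genes together had 32.0 ± 2.72 CPM on day 6 in EPS-shYy1 cells, against 5.49 ± 0.835 CPM before differentiation. They had 43.3 ± 0.953 CPM on day 6 in EPS-shCtrl cells, against 5.78 ± 0.149 CPM before. In ES-oeYy1 cells they had 35.7 ± 0.720 CPM on day 6, against 3.91 ± 0.851 CPM before, and in ES-oeCtrl cells 25.9 ± 0.0097 CPM on day 6, against 4.77 ± 0.361 CPM before (SD, n = 2 each).

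Pcdhgc3 had between 21.2 and 34.3 CPM in the 8 day 6 libraries, against 3.17 to 5.41 CPM in the 8 undifferentiated libraries of the same lines. The lowest day 6 library was above the highest undifferentiated one. Its log2 fold change between the stages was 2.69 ± 0.16 in EPS-shYy1, 2.51 ± 0.15 in EPS-shCtrl, 2.83 ± 0.16 in ES-oeYy1 and 2.32 ± 0.16 in ES-oeCtrl cells. Pcdhgc5 had 4.71 to 10.97 CPM on day 6, against 0.131 to 2.05 CPM in undifferentiated cells, with log2 fold changes between 2.22 (EPS-shYy1) and 5.63 (ES-oeYy1). Pcdhb22 had 0.968 to 3.56 CPM on day 6, against 0 to 0.634 CPM before in the same lines, with log2 fold changes between 2.21 (ES-oeYy1) and 4.92 (EPS-shCtrl). Untransduced ES libraries had 1.32, 1.12 and 1.61 CPM of Pcdhb22, within the day 6 range, and EPS libraries 0.269, 0.144 and 0.704 CPM, below it.

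Pcdhga1, the first gene of the gamma array, went the other way. It had 0.348 to 1.02 CPM in the day 6 libraries, against 1.90 to 7.82 CPM in the undifferentiated libraries of the same lines. Untransduced EPS libraries had 0.592, 0.818 and 2.35 CPM of Pcdhga1, and ES libraries 1.94 to 3.10 CPM. Its log2 fold change was -0.89 ± 0.33 in EPS-shYy1, -3.00 ± 0.33 in EPS-shCtrl, -4.19 ± 0.34 in ES-oeYy1 and -1.48 ± 0.32 in ES-oeCtrl cells, and it passed the test in each. The call in EPS-shYy1 cells held under 4 of 9 alternatives and was lost with DESeq2 (adjusted p = 0.0527), with no filter on low counts, without EPS-shYy1 replicate 2 and without either day 6 EPS-shYy1 library. The groups of a line did not overlap in any of the 4 lines.

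Over all members the direction depended on the line. In EPS-shYy1 cells 14 of 23 members rose and 1 fell on day 6, where 75.4% of all genes changed, 37.9% rose and 37.4% fell. In EPS-shCtrl cells 9 rose and 2 fell, where 74.1% of all genes changed, 37.5% rose and 36.6% fell. In ES-oeYy1 cells 6 rose and 11 fell, where 72.7% of all genes changed, 35.7% rose and 36.9% fell. In ES-oeCtrl cells 9 rose and 3 fell, where 73% of all genes changed, 37.1% rose and 35.9% fell. The counts of risen members in EPS-shCtrl and ES-oeCtrl cells lie near that background.

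Pcdhb22, Pcdhgb6, Pcdhgc3 and Pcdhgc5 rose in all 4 lines, which is 17.4% of members tested, beside 21.6% of all genes. Pcdhb22 passed the filter on low counts here only with the day 6 libraries, where it is high. Its rises, counted in each of the 4 lines, are therefore given as a description. Pcdhga1 fell in all 4 lines, 4.35% of members tested, beside 19.4% of all genes, with the limit given above for EPS-shYy1 cells. The call of Pcdhgb6 in ES-oeCtrl cells held under 6 of 9 alternatives. Pcdhb14 fell in the ES-oeYy1 line, with 0 and 0.209 CPM on day 6, against 3.01 and 4.72 CPM before. Pcdhb17 had 0.139 and 0.557 CPM on day 6 in ES-oeYy1 cells, against 2.16 and 2.61 CPM before. Pcdhb8 had no read on day 6 in that line and was at least 4.41-fold lower. Pcdhb14, Pcdhb17 and Pcdhb8 passed the filter on low counts here only with the undifferentiated ES-oeYy1 libraries, where they are high. Their falls, counted among the 11 in that line, are therefore given as a description. Pcdhgb2 rose most in EPS-shYy1 cells among the A and B members, with 3.31 and 3.25 CPM on day 6, against 0.0731 and 0.181 CPM before.

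**Figure D4:**
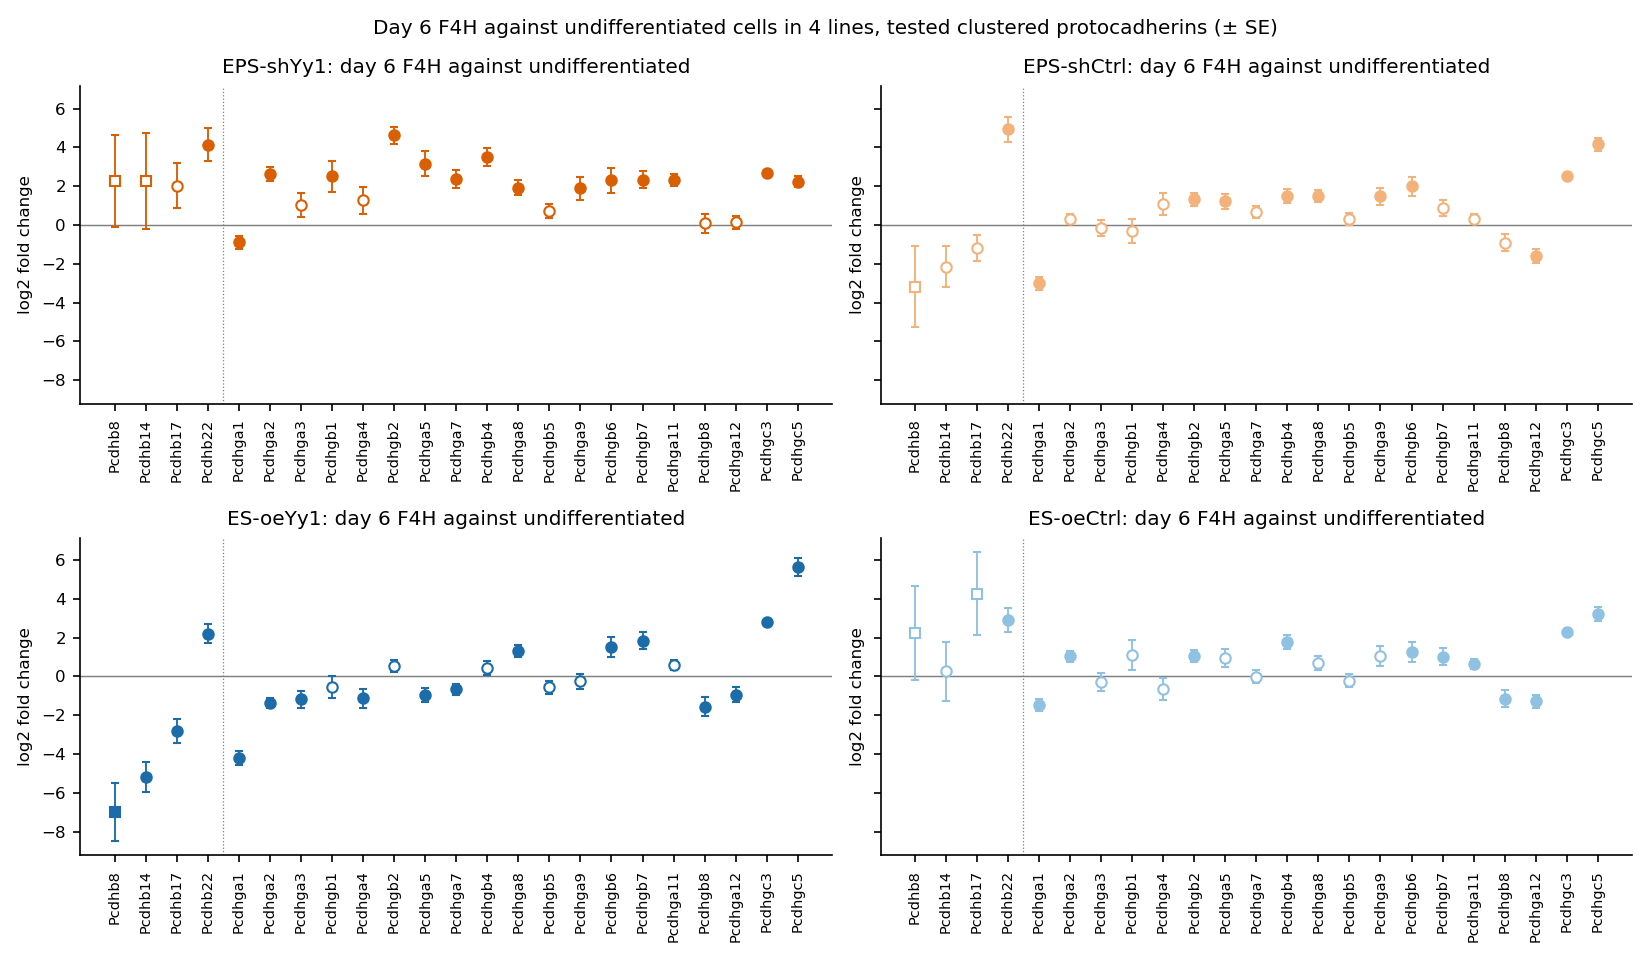
Log2 fold changes (± SE) of the 23 tested members on day 6 of F4H against undifferentiated cells in the 4 lines, in genomic order. Filled symbols passed an adjusted p under 0.05, and squares mark genes with no read in one of the groups. Pcdhgc3 and Pcdhgc5 at the right end are above 0 in each line, and Pcdhga1 is below 0 in each.

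Marker lists of other cell types also differed between the stages. Trophoblast markers summed to 3340 to 6488 CPM on day 6 and 121 to 220 CPM in undifferentiated cells of the 4 lines, and primitive and visceral endoderm markers to 1350 to 2376 CPM on day 6 and 222 to 445 CPM before. Fibroblast markers summed to 1755 to 3736 CPM on day 6 and 35.0 to 260 CPM before, and neural markers to 318 to 718 CPM on day 6 and 305 to 461 CPM before. Their part in the protocadherin changes was not tested.

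On day 6 the gamma sums of each pair stood in the same order as before. EPS-shYy1 cells had a sum of 63.3 ± 3.69 CPM and EPS-shCtrl cells one of 77.0 ± 2.25 CPM (SD, n = 2 each). The A and B genes together had means of 31.4 and 33.7 CPM, and the C genes 32.0 and 43.3 CPM. Before differentiation the A and B genes had 10.5 and 24.4 CPM, and the C genes 5.49 and 5.78 CPM. TMM factors on day 6 were 0.976 and 0.974 in EPS-shYy1 and 1.07 and 1.07 in EPS-shCtrl libraries. The day 6 gaps are therefore smaller with TMM scaling, and the order of the A and B sums depends on it. Of 20 members tested 8 fell and 3 rose, where 61.3% of all genes were called, 30.4% lower and 30.9% higher. Pcdhb22 fell most firmly, with 0.968 and 1.56 CPM in EPS-shYy1 libraries, against 3.56 and 3.02 CPM in EPS-shCtrl libraries (log2 fold change -1.27 ± 0.29, adjusted p = 0.000156, edgeR). Pcdhgc5 had 7.08 and 6.18 CPM in EPS-shYy1 libraries, against 9.68 and 10.97 CPM in EPS-shCtrl libraries (log2 fold change -0.50 ± 0.15). Pcdhgc3 had 26.8 and 23.9 CPM in EPS-shYy1 libraries, against 34.3 and 31.7 CPM in EPS-shCtrl libraries (log2 fold change -0.24 ± 0.08). For these 3 genes both EPS-shYy1 libraries were below both EPS-shCtrl libraries.

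Pcdhga3, Pcdhga5, Pcdhga8, Pcdhga9 and Pcdhgb6 fell by 0.52 to 1.12 on the log2 scale, while Pcdhga1 (1.10), Pcdhga12 (1.01) and Pcdhgb2 (0.70) rose. DESeq2 called 3 members in this comparison, all lower, and edgeR called 4 to 7 with any 1 of the 4 libraries left out. Pcdhga3 and Pcdhga5 were called lower with the hairpin at both stages, which is 28.6% of the 7 lower before and 25% of the 8 lower on day 6, among members tested at both stages, beside 30.5% and 14.1% over all genes. The call of Pcdhb22 on day 6 held under every alternative run, those of Pcdhgc5 and Pcdhgc3 under 7 and 6 of 9, and that of Pcdhga1 under 3 of 9. Yy1 itself was not called on day 6. Fibroblast markers summed to 3494 to 3499 CPM in EPS-shYy1 and 1755 to 1776 CPM in EPS-shCtrl libraries. Neural markers summed to 649 to 659 CPM in EPS-shYy1 and 318 to 324 CPM in EPS-shCtrl libraries. Trophoblast markers (6407 to 6488 against 3340 to 3345 CPM) and endoderm markers (2163 to 2184 against 1350 to 1356 CPM) were higher in EPS-shYy1 libraries too. Mesoderm markers were lower in EPS-shYy1 libraries (176 to 185 against 354 to 357 CPM). So were pluripotency markers (226 to 246 against 476 to 477 CPM). Their part in the result was not tested.

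ES-oeYy1 cells had a gamma sum of 67.8 ± 1.42 CPM on day 6 and ES-oeCtrl cells one of 53.7 ± 1.12 CPM (SD, n = 2 each). Of 20 members tested 3 rose and 0 fell, where 41.9% of all genes were called, 20.3% higher and 21.6% lower. Pcdhgc3 had 27.8 and 28.7 CPM in ES-oeYy1 libraries, against 21.2 and 21.2 CPM in ES-oeCtrl libraries (log2 fold change 0.38 ± 0.09, adjusted p = 0.000605, edgeR). Pcdhgc5 had 8.43 and 6.47 CPM in ES-oeYy1 libraries, against 4.72 and 4.71 CPM in ES-oeCtrl libraries (log2 fold change 0.62 ± 0.18). Pcdhga8 was the other member to rise, by a log2 fold change of 0.89 ± 0.26. In each of the 3 genes the groups did not overlap, and none of the 3 was called with the construct before differentiation, where over all genes 14% of those higher on day 6 had been called higher before.

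The same 3 genes were among the 8 lower with the hairpin on day 6. They are 37.5% of those 8 and 100% of the 3 higher with the construct, beside 41.4% and 61.9% over all genes. Fibroblast markers summed to 2692 to 2721 CPM in ES-oeYy1 and 3712 to 3736 CPM in ES-oeCtrl day 6 libraries. Trophoblast markers were lower in ES-oeYy1 libraries too (3377 to 3526 against 5625 to 5674 CPM). So were neural markers (524 to 540 against 707 to 718 CPM) and endoderm markers (2021 to 2054 against 2339 to 2376 CPM). Pluripotency markers were also lower (399 to 404 against 467 to 477 CPM). Mesoderm markers were higher (506 to 553 against 305 to 313 CPM). The part of these markers in the result was not tested.

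Between the day 6 controls, 6 of 20 members tested rose and 0 fell in EPS-shCtrl against ES-oeCtrl cells. Of all genes 64.1% were called, 31.6% higher and 32.4% lower. The risen members are 30% of those tested, near the share of all genes that rose. Pcdhgc5 had 9.68 and 10.97 CPM in EPS-shCtrl libraries, against 4.72 and 4.71 CPM in ES-oeCtrl libraries (log2 fold change 0.98 ± 0.16, adjusted p = 4.25e-07, edgeR). Pcdhgc3 had 34.3 and 31.7 CPM in EPS-shCtrl libraries, against 21.2 and 21.2 CPM in ES-oeCtrl libraries (log2 fold change 0.49 ± 0.09). The groups did not overlap in either gene. Pcdhga8 (1.02), Pcdhga5 (0.91), Pcdhga9 (0.81) and Pcdhb22 (0.70) rose too, and 3 members were called by DESeq2 or without ES-oeCtrl replicate 1 of day 6. The call of Pcdhga9 held under 2 of 9 alternatives. Marker sums were lower in EPS-shCtrl than in ES-oeCtrl libraries, with 1755 to 1776 CPM in EPS-shCtrl and 3712 to 3736 CPM in ES-oeCtrl libraries for fibroblast, 318 to 324 CPM in EPS-shCtrl and 707 to 718 CPM in ES-oeCtrl libraries for neural markers. Trophoblast markers summed to 3340 to 3345 CPM in EPS-shCtrl and 5625 to 5674 CPM in ES-oeCtrl libraries, and endoderm markers to 1350 to 1356 CPM in EPS-shCtrl and 2339 to 2376 CPM in ES-oeCtrl libraries. Their part in the result was not tested. These comparisons share control libraries with the hairpin and construct comparisons above.

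The make-up of the gamma reads followed the stage. C-type genes took 50.4% of gamma counts in EPS-shYy1, 56.3% in EPS-shCtrl, 52.7% in ES-oeYy1 and 48.2% in ES-oeCtrl cells on day 6 (means of 2 libraries). Before differentiation they took 34.2% in EPS-shYy1 and 19.2% in EPS-shCtrl cells, 8.62% in ES-oeYy1 and 17.3% in ES-oeCtrl cells, and 32.0% in EPS and 23.9% in ES cells (means of 3). Neither manipulated pair overlapped before differentiation, with 33.0 to 35.3% in EPS-shYy1 and 18.0 to 20.4% in EPS-shCtrl libraries, and 7.07 to 10.2% in ES-oeYy1 and 15.6 to 18.9% in ES-oeCtrl libraries. A-type genes took 26.6 to 27.6% of gamma counts on day 6 in each line, and 67.7% in undifferentiated ES-oeYy1 cells. Pcdhga1 alone took 0.615% in ES-oeYy1 cells on day 6, against 16.2% before differentiation. A share falls when other members rise, and these shares were not tested.

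**Figure D5:**
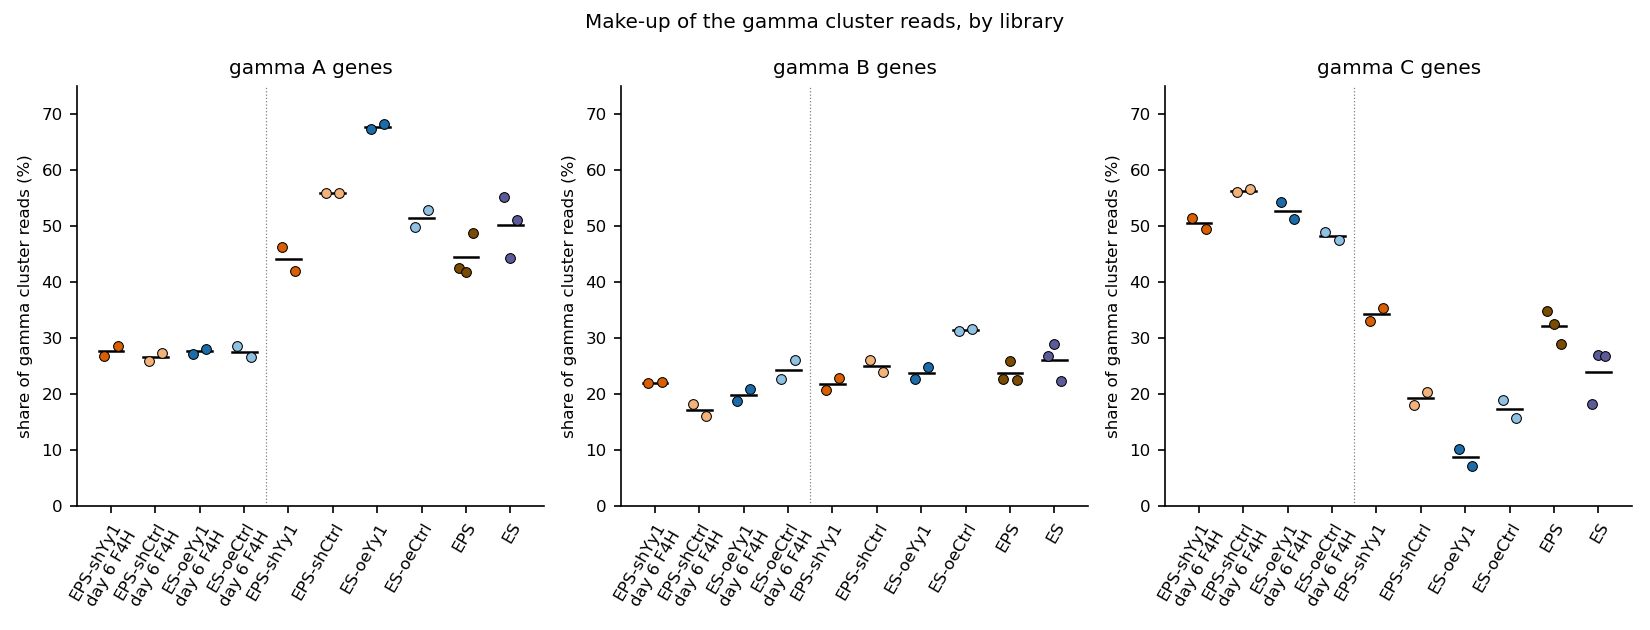
Share (%) of the gamma cluster counts held by the A, B and C genes in each library, by group. Points are libraries, lines are group means and the dotted line separates day 6 from undifferentiated cells. C genes hold 48.2 to 56.3% on average on day 6 and 8.62 to 34.2% in undifferentiated cells.

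The fit over 16 libraries also tested whether an effect differed between day 6 and undifferentiated cells. The hairpin effect was higher on day 6 than before for 8 of 23 members and lower for 1, where 41.5% of all genes were called, 21.4% higher and 20.1% lower, and 5 members were called in all without undifferentiated EPS-shYy1 replicate 2. Among members called, Pcdhgb2 changed by 3.28 ± 0.64 on the log2 scale (day 6 effect minus undifferentiated effect), and Pcdhga2 by 2.32 ± 0.45. Pcdhgc5 was the member that went lower (-1.94 ± 0.49). The construct effect was lower on day 6 for 5 members and higher for 1. Of all genes 37.6% were called, 19.9% lower and 17.7% higher. Pcdhb14 and Pcdhb17, among the 5 lower, passed the filter on low counts only with the undifferentiated ES-oeYy1 libraries, where they are high. Pcdhga1 changed by -2.72 ± 0.51 and Pcdhga2 by -2.39 ± 0.41, while Pcdhgc5 changed by 2.42 ± 0.78. Yy1's own hairpin effect changed by 0.95 ± 0.10 and its construct effect by -1.60 ± 0.10.

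Genes of the wider pathway were taken from lists chosen with these results known. In undifferentiated cells the shares of all genes called were 15.1% higher and 13.3% lower with the hairpin, and 14.8% higher and 17.1% lower with the construct. Of 17 genes next to or between the clusters, 0 rose and 5 fell with the hairpin, and 1 rose and 2 fell with the construct, the last below the background. Wdr55, a neighbour of the clusters, was lower with the hairpin (log2 fold change -1.003), and Tmco6 was lower with the construct (-1.06). Median log2 fold changes of these neighbours were -0.17 with the hairpin and -0.09 with the construct.

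Of 12 protocadherins outside the clusters 8 were tested. With the hairpin Pcdh19, a delta protocadherin, rose (log2 fold change 1.93) and Pcdh1 fell (-1.40), and with the construct Pcdh19 (0.99) and Pcdh1 (1.17) rose. On day 6 Pcdh18 and Pcdh7 rose in all 4 lines, with log2 fold changes of at least 5.71. Among 8 classical cadherins 7 to 8 rose and 0 fell on day 6 in each line, where 35.7 to 37.9% of all genes rose.

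Of 27 genes known to act on clustered protocadherin promoters or their chromatin, 2 rose and 10 fell with the hairpin, and 9 rose and 0 fell with the construct, where 28.5% of all genes were called with the hairpin and 32% with the construct. The 27 genes include Yy1 itself, whose own change is the manipulation and no result about the list. Dnmt3b, a de novo DNA methyltransferase, fell with the hairpin (log2 fold change -1.18) and rose with the construct (1.59). Its cofactor Dnmt3l had 10.5 and 7.47 CPM in EPS-shYy1 libraries, against 46.0 and 67.3 CPM in EPS-shCtrl libraries, and 218 and 232 CPM in ES-oeYy1 libraries, against 2.54 and 2.68 CPM in ES-oeCtrl libraries. Setdb1, an H3K9 methyltransferase, fell with the hairpin (-0.50) and rose with the construct (0.69). In EPS against ES cells Dnmt3b (2.25) and Dnmt3l (1.63) rose, whereas members of the family fell.

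Ctcf, Rad21 and Smchd1 were not called in either undifferentiated comparison of a manipulated line. On day 6 Ctcf and Rad21 fell in all 4 lines, by at least 0.70 and at least 0.46 on the log2 scale. Of 24 partners and signalling genes, 1 rose and 2 fell with the hairpin and 5 rose and 3 fell with the construct, beside 28.5% and 32% of all genes called, so the construct counts lie near the background and the hairpin counts below it.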

How the data were processed

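The deposited files used here hold whole-number counts of reads per gene symbol, 1 table per library, which the authors did not normalize. Per the submitters' processing notes, the builds are GRCm38.p6 and mm10 and the tools Bowtie2 2.3.2 and CASAVA, with no role stated, and the counting tool, its strand setting and the annotation version are not given in the sources used here. Summary lines that name no gene were left out: reads outside annotated genes (5.61 to 8.62% of a table), ambiguous reads (3.70 to 5.32%) and multiply aligned reads (5.45 to 6.66%). The other samples of the series were not used here.

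CPM was computed from gene counts. Groups followed the titles. Fits with edgeR 4.0.16 in R 4.3.3 (TMM factors, filterByExpr, robust quasi-likelihood F-test) covered 14 undifferentiated libraries, 8 day 6 libraries, and 16 hairpin and overexpression libraries of both stages, giving 13 comparisons. Calls were made where p, adjusted by Benjamini-Hochberg over all genes of the fit, was under 0.05. The SE was the log2 fold change divided by the root of F. DESeq2 1.42.0 was an alternative. The fits were tested on simulated data. No replicate pair was a copy. Floors and intervals cover counting error only. Coordinates are RefSeq's.

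The members and all lists were chosen with earlier results of these data known. For each comparison the text names up to 8 called members of smallest p per direction, the 2 members of highest level per cluster, the C-type members, and from other lists up to 4 called genes and 7 regulators (Yy1, Ctcf, Rad21, Smchd1, Setdb1, Dnmt3b and Dnmt3l). Same-numbered EPS and ES libraries deviated together from their group means (correlations 0.126, 0.173 and 0.374). The labels do not say that replicate numbers pair libraries, so pairing is possible but not established. The main fit had no block, and a replicate block was run as an alternative. In the other comparisons correlations were -0.027 to 0.058, and libraries share only a number.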

Additional observations from a re-analysis of the deposited data

Results flagged for a closer look

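These members stood out because the effect of a manipulation differed between day 6 and undifferentiated cells by the test of that difference (edgeR, adjusted p under 0.05, log2 values of the day 6 effect minus the undifferentiated effect). For the hairpin the differences were 2.11 for Pcdhga1, 2.00 for Pcdhga11, 1.73 for Pcdhga12, 2.32 for Pcdhga2, 1.70 for Pcdhga7, 2.81 for Pcdhgb1, 3.28 for Pcdhgb2, 2.02 for Pcdhgb4 and -1.94 for Pcdhgc5. Those of Pcdhga1, Pcdhga11, Pcdhga2 and Pcdhgb2 were called under all 13 alternatives, whereas those of Pcdhga7 and Pcdhgb1 were called under 6 of 13. Leaving out EPS-shYy1 replicate 2 ended the call of Pcdhgc5 (adjusted p = 0.156, edgeR).

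For the construct the differences were -5.43 for Pcdhb14, -7.08 for Pcdhb17, -2.72 for Pcdhga1, -2.39 for Pcdhga2, -1.91 for Pcdhga5 and 2.42 for Pcdhgc5. Those of Pcdhga1 and Pcdhga2 were called under all 13 alternatives. Pcdhb14 and Pcdhb17 passed the filter on low counts only with the undifferentiated ES-oeYy1 libraries, where they are high. Their differences are therefore given as a description. The values of Pcdhb14 and Pcdhb17 rest on 2 counts and 0 counts in undifferentiated ES-oeCtrl cells, so they depend on the prior count and are no bound. Stage and library batch cannot be told apart for any of these differences.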

How the results depend on the processing

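Fitting only the libraries compared lowered the members called to 3 for EPS against ES, to 5 for EPS-shYy1 against EPS-shCtrl and to 0 for EPS-shCtrl against ES-oeCtrl, where 13, 13 and 15 members in place of 23 passed the filter. DESeq2 lowered them to 3 for EPS-shYy1 against EPS-shCtrl on day 6 and to 3 for EPS-shCtrl against ES-oeCtrl on day 6. The cause of the DESeq2 differences was not tested. Leaving out 1 library in turn gave 2 to 8 calls for EPS against ES, 4 to 9 for the hairpin, 6 to 7 for the construct and 1 to 2 for the control lines. On day 6 it gave 4 to 7 for the hairpin, 2 to 3 for the construct and 3 to 6 for the controls. For day 6 against undifferentiated cells the ranges were 15 to 17 (EPS-shYy1), 10 to 13 (EPS-shCtrl), 12 to 15 (ES-oeYy1) and 9 to 11 (ES-oeCtrl). For the change between stages they were 5 to 10 (hairpin) and 4 to 7 (construct). All 9 reversals concerned members that were not called. Over the libraries left out, Pcdhgc5 ran from -0.062 (without EPS replicate 1) to 0.68 for EPS against ES and from -0.22 (without ES-oeCtrl replicate 1; -0.06 without EPS-shCtrl replicate 1) to 0.32 for EPS-shCtrl against ES-oeCtrl. Pcdhgc3 ran from -0.43 to 0.033 (without ES-oeYy1 replicate 2) for the construct. Pcdhb22 ran from -3.65 to 0.31 (without EPS-shYy1 replicate 1; 0.04 without EPS-shCtrl replicate 1) for the hairpin and from -2.27 to 3.66 (without ES-oeCtrl replicate 2) for the control lines. Its change between stages ran from -1.59 to 2.47 (without EPS-shYy1 replicate 2) for the hairpin and from -5.755 to 0.25 (without ES-oeCtrl replicate 1) for the construct. A replicate block gave 7 calls for EPS against ES, 11 for the hairpin and 11 for the construct, and moved no count by more than 1.5 times. TMM scaling moved 4 cluster sums by more than their SD. Members with under 10 counts cannot show small changes at this depth.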
